A study of Mus musculus with 71 samples.

Results

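The comparison described here is that of Rag2-/- with wild-type DN3a thymocytes, made by RNA sequencing of cells sorted ex vivo from the thymus of C57BL/6 mice. It rests on 2 libraries of each genotype among the 71 samples of the series, and 2 libraries of wild-type DN3b thymocytes, the next stage, are given beside them. DN3a cells were sorted as lineage-negative Thy1.2+ cells with high CD25 and without CD44, CD28 and CD71, and DN3b cells by the same scheme with CD28 and CD71. The labels name no treatment and no further allele in either genotype. The sources used here do not say which part of the Rag2 gene is deleted, how old the mice of these libraries were or how many were pooled. Nothing says whether replicates came from separate mice, so p-values measure only the spread between these samples. Experiment numbers differ between the genotypes and between DN3a and DN3b, so genotype and stage cannot be told apart from differences between experiments. Of the 24420 genes listed in each file, 12060 had a level above 1 TPM (a transcript level corrected for length and library total) in at least 1 DN3a library, and these are the genes described.

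DN3 thymocytes are the stage at which the T cell receptor beta, gamma and delta genes are rearranged by the recombinase formed by Rag1 and Rag2. A productive beta chain pairs with the invariant pre-T alpha chain, encoded by Ptcra, and with CD3 to form the pre-T cell receptor (pre-TCR), whose signal, called beta-selection, sends cells into the cell cycle and towards the CD4+ CD8+ stage. Mice without the recombinase cannot assemble receptor genes, and their thymocytes stop at the DN3 stage. Notch1 signalling sustains DN3 cells, drives Ptcra, Dtx1 and Il2ra, and is turned down as cells pass beta-selection.

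Limma on log2(TPM + 0.1) called 5455 of the 12060 genes (45.2%) at an adjusted p (Benjamini-Hochberg) under 0.05, of which 1486 (12.3%) were higher and 3969 (32.9%) lower in Rag2-/- DN3a cells. Past a fold change of 3 and a mean of 5 TPM in 1 genotype, 95 genes (0.788%) were higher and 401 (3.33%) lower. The median log2 fold change over all genes was -0.19, so the split by direction depends on the scale: after median-ratio scaling of the libraries the median was -0.01, with 2547 genes (21.1%) called higher and 2871 (23.8%) lower. All 1486 higher calls and 2871 of the 3969 lower calls held on that scale, and 0 changed direction. The number called was 2709 without wild-type replicate 1 and 2538 without wild-type replicate 2, against 3820 and 4052 without Rag2-/- replicate 1 and 2. Pearson's r across genes was 0.972 and 0.976 between the replicates of wild-type and Rag2-/- cells and 0.914 to 0.923 between genotypes, with genes not being independent replicates. Counts given with 1 library left out are in the order wild-type replicate 1, wild-type replicate 2, Rag2-/- replicate 1 and Rag2-/- replicate 2, and a call lost without either replicate was lost with each of them left out in turn. Summed levels cover every member of a list in the files, tested or not. Fold changes below compare 2 with 2 libraries on the log2(TPM + 0.1) scale and carry their SE. Because 0.1 is added first, folds of weakly expressed genes come out too small. The libraries of the genotypes did not overlap for 9234 of the 12060 genes, among them all 5455 called. A lack of overlap thus adds nothing to a call.

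**Figure D1:**
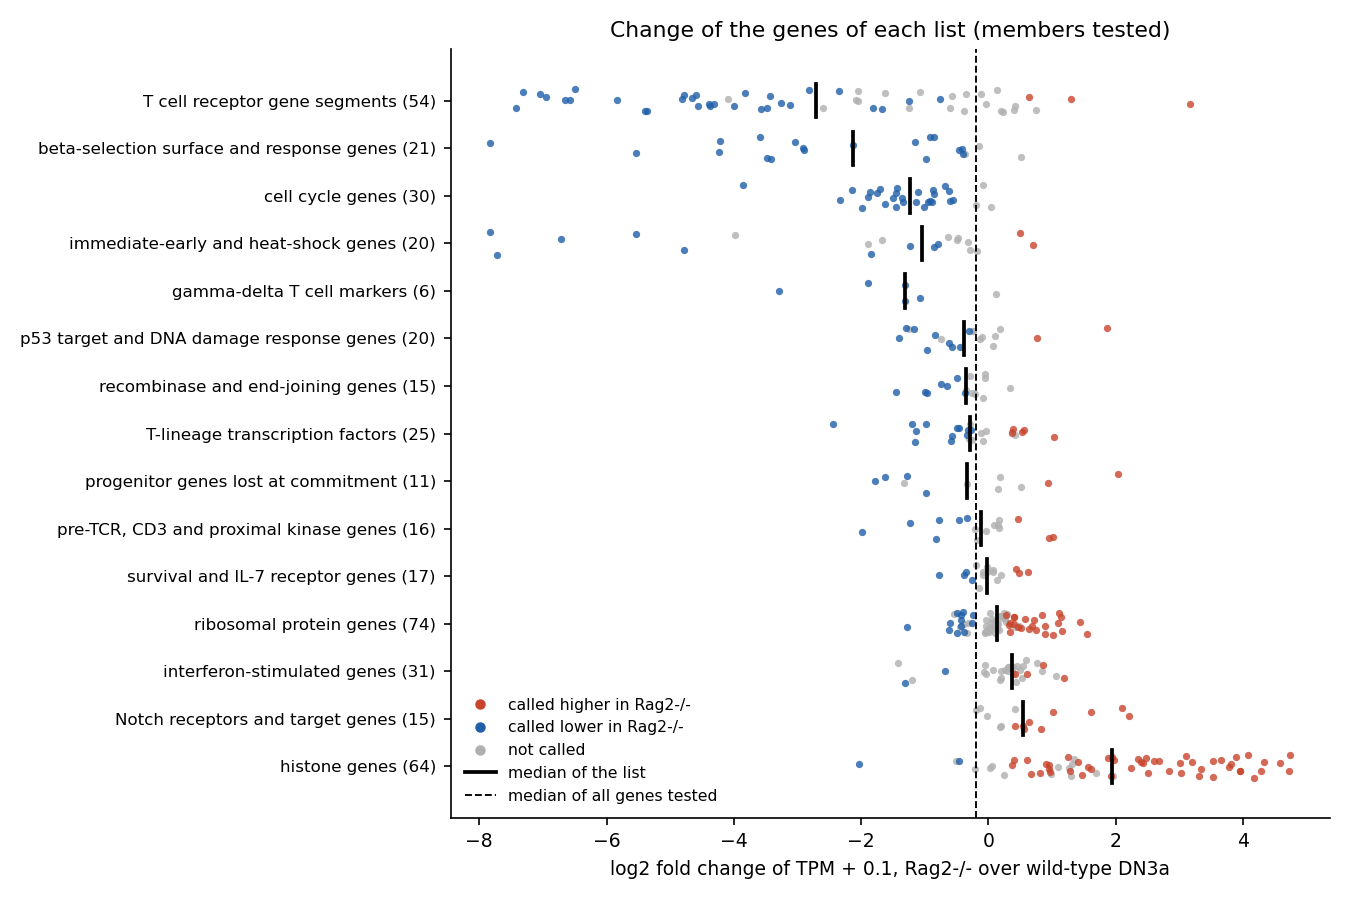
Log2 fold change of TPM + 0.1 (x axis, Rag2-/- over wild-type DN3a) of each tested gene in 15 gene lists (y axis, with the number tested in parentheses). Points are genes coloured by their call, short bars are list medians and the dashed line is the median of all genes tested, -0.19. T cell receptor segments, beta-selection genes and cell cycle genes lie mostly to the left of that line, and Notch and histone genes mostly to its right.

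The Rag2 transcript was still read in the mutant, at 48.7 and 75.5 TPM in wild-type and 35.5 and 42.2 TPM in Rag2-/- libraries. It was 1.56-fold lower (log2 -0.65 ± 0.22, adjusted p = 0.046), with no overlap of the libraries, and this call was lost after median-ratio scaling and without any 1 of the 4 DN3a libraries. Since the deleted part of the gene is not given, this level does not test the genotype label. Rag1, the catalytic partner, stood at 622 and 972 TPM in wild-type and 1063 and 912 TPM in Rag2-/- cells and was not called (log2 0.34 ± 0.21, adjusted p = 0.22). In DN3b cells both were low, Rag2 at 8.97 and 11.5 TPM and Rag1 at 86.9 and 111 TPM.

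Among 15 recombinase and end-joining genes 7 were lower and 0 higher, against 32.9% and 12.3% of all genes, and 5 were lower after median-ratio scaling, against 23.8%. The lower members included Dclre1c (the hairpin-opening nuclease Artemis, named in the files as overlapping another gene) at 13.2 and 11.9 against 4.47 and 4.58 TPM. The DNA damage kinases Atm and Prkdc fell by 0.99 and 0.96 on the log2 scale, the damage adaptor Trp53bp1 (also overlapping) by 0.74 and the Ku subunit Xrcc5 by 0.49. Dntt, the polymerase that adds N nucleotides at junctions, was 3472 and 3214 TPM in wild-type and 2547 and 2632 TPM in Rag2-/- cells, and its call was lost after scaling. Xrcc6, Lig4, Nhej1 and Xrcc4 of the same repair pathway were not called. The count of lower members was 4, 2, 6 and 7 with 1 library left out. Significance was lost for Prkdc and Xrcc5 without wild-type replicate 2, and for Trp53bp1 without either wild-type replicate.

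The T cell receptor loci held some of the largest differences. Of 207 segments listed in the files 54 passed the filter. Of these 31 were lower and 3 higher in Rag2-/- cells, against 32.9% and 12.3% of all genes. Their median log2 fold change was -2.71, or -1.67 without the 13 segments listed at 0 throughout 1 genotype. A segment that passed the filter through the wild-type libraries alone had to be lower, so these counts only describe. Segments of a family are near-identical copies that can share reads, so the level of any single segment is uncertain.

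Of 19 tested beta V segments 17 were lower, against 32.9% of all genes, and 5 were listed at 0 in both Rag2-/- libraries. Trbv12-1 was 15.1 and 16.6 TPM in wild-type DN3a cells, 77.8 and 103 TPM in DN3b cells and listed at 0 in both Rag2-/- libraries. Trbv19, Trbv20, Trbv26 and Trbv29 were likewise listed at 0 in the mutant, with Trbv20 at 9.22 and 10.9 TPM and Trbv29 at 8.31 and 10.7 TPM in wild-type DN3a cells. Trbv13-1 was 43.3 and 40.9 TPM in wild-type and 0 and 0.917 TPM in Rag2-/- cells, and Trbv1 32.1 and 26.8 TPM in wild-type and 0.4004 and 0.875 TPM in Rag2-/- cells. As for every called gene, the genotypes were fully separated for each of these segments, and each was higher still in DN3b cells. Trbv13-2 differed less, at 965 and 808 TPM in wild-type and 651 and 738 TPM in Rag2-/- cells (log2 -0.35 ± 0.14, adjusted p = 0.073), and Trbv12-2 fell by 0.77 on the log2 scale, from 95.02 and 84.5 to 55.2 and 50.2 TPM. Summed over the 22 beta V segments, levels were 1371 and 1184 against 729.8 and 807 TPM.

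The gamma locus gave the highest level of a single V segment. Trgv2 stood at 1226 and 1361 TPM in wild-type DN3a, 684 and 642 TPM in DN3b and 11.6 and 4.81 TPM in Rag2-/- cells, a 171-fold difference between genotypes (log2 -7.42 ± 0.33, adjusted p = 2.7e-05). Tcrg-V4 was 211 and 257 against 4.79 and 6.45 TPM, Tcrg-V7 31.99 and 43.2 against 2.57 and 4.38 TPM and Tcrg-V3 11.1 and 10.97 against 0.801 and 0.438 TPM, each called lower. Tcrg-V5 and Tcrg-V6 were not called, at 4.72 and 2.56 against 7.65 and 2.09 TPM and 2.38 and 3.25 against 1.74 and 0.3801 TPM. The joining segment Trgj1 was higher (194 and 257 against 349.7 and 346 TPM), whereas Trgj2, Trgj3 and Trgj4 and the constant gene Tcrg-C, named as overlapping, were not called (471 and 399 against 460.1 and 558 TPM), and Tcrg-C was called higher after median-ratio scaling.

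Among 14 alpha or delta V segments 8 were lower and 0 higher, against 32.9% and 12.3% of all genes. Their lower count was 4, 4, 8 and 9 with 1 library left out. Trdv5 was 132 and 119 TPM in wild-type and 10.97 and 15.5 TPM in Rag2-/- cells and Trav15-2-dv6-2 26.8 and 21.9 TPM in wild-type and 1.82 and 2.38 TPM in Rag2-/- cells. Trav17 and Trav18 were not called, at 31.3 and 33.2 against 20.2 and 30.3 TPM and 27.7 and 24.5 against 24.3 and 23.9 TPM. Of 15 D, J and C segments 3 were higher and 2 lower, against 12.3% and 32.9% of all genes. Their lower count was 2, 4, 1 and 1 with 1 library left out. The delta diversity segment Trdd2 rose from 26.6 and 11.7 to 149 and 172 TPM (log2 3.17 ± 0.38, adjusted p = 7.1e-04) and the delta joining segment Trdj1 from 406 and 286 to 697 and 1017 TPM. Trac, the alpha constant gene, was 7.96 and 3.96 TPM in wild-type cells and listed at 0 in both mutant libraries, and Trbj1-7 was 196 and 196 against 65.4 and 47.7 TPM, a call lost after median-ratio scaling. Summed levels of gamma V segments were 1487 and 1678 against 29.1 and 18.5 TPM, those of alpha or delta V segments 255 and 231 against 68.6 and 88.2 TPM, and those of D, J and C segments 2090 and 2007 against 2772 and 2941 TPM. The drop was thus larger in V than in D, J and C segments, whose sum was higher in both Rag2-/- libraries.

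**Figure D2:**
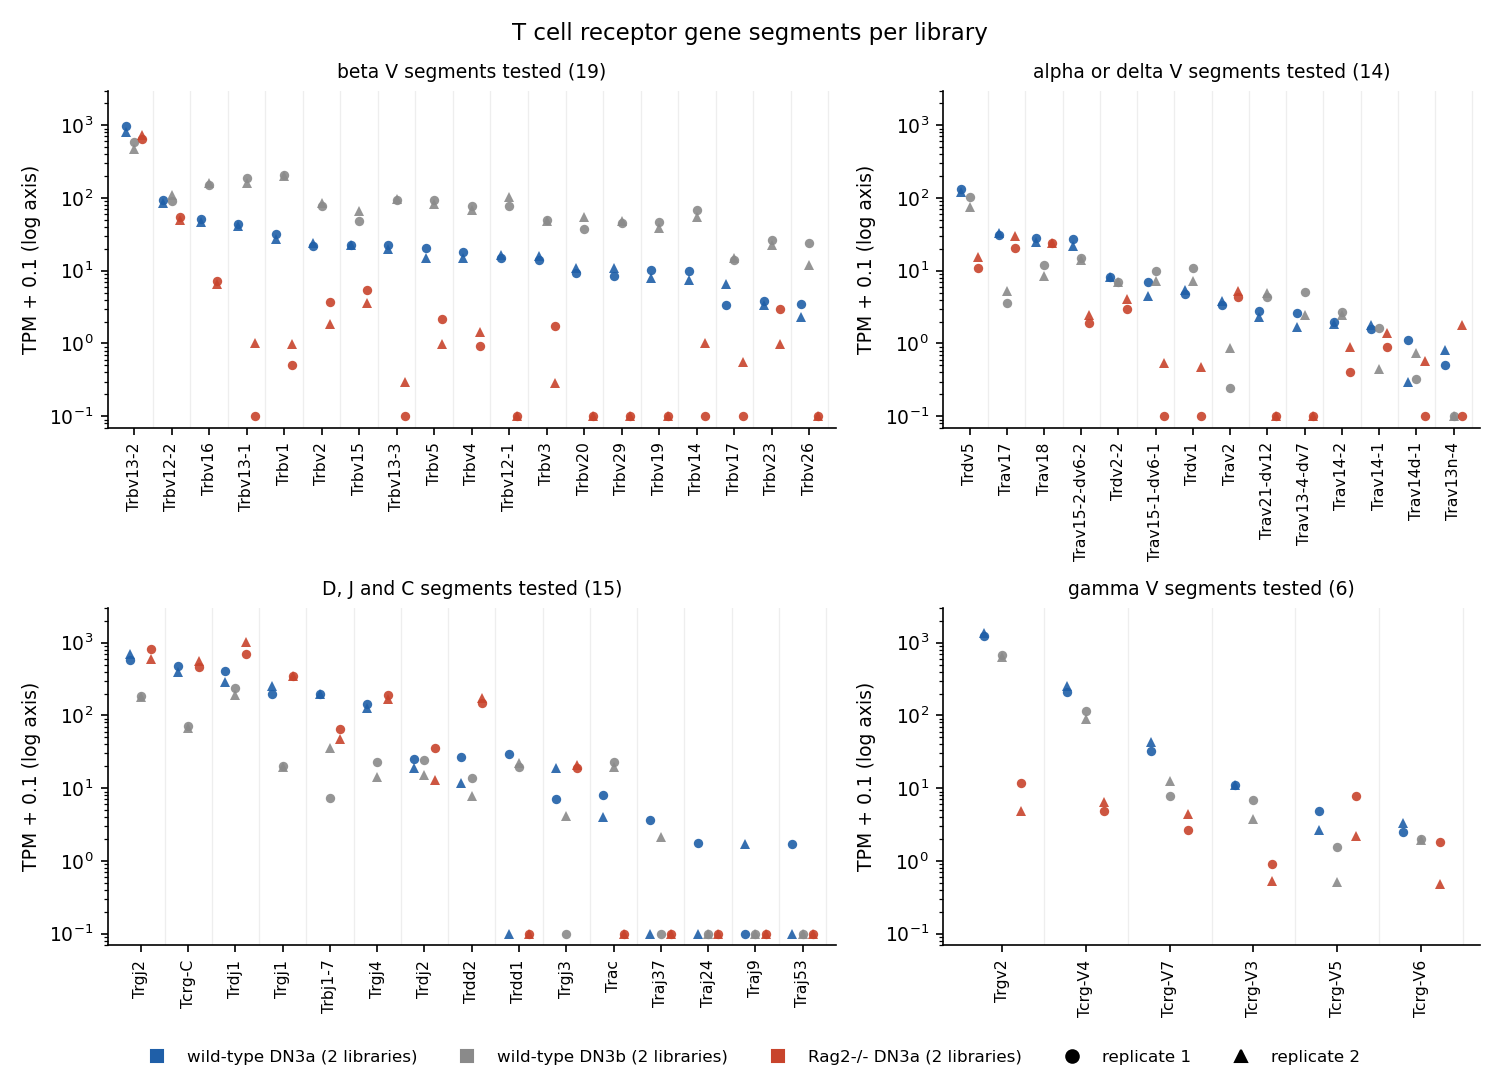
TPM + 0.1 (log y axis) of every tested T cell receptor segment (x axis) in 6 libraries, with colours for genotype and stage and symbols for replicates. In the beta V and gamma V panels most Rag2-/- points lie below the wild-type DN3a points, with 5 beta V segments at the bottom of the axis in both Rag2-/- libraries, while Trbv13-2, Tcrg-C and Trgj2 lie close to wild type.

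The promoters of Nr4a1 and Ptcra are shown before their values, Nr4a1 because it had the largest fitted drop outside the small RNAs and Ptcra because it encodes a pre-TCR chain and is a Notch target that rose. Each window runs from 250 bases before to 50 bases after the annotated start and comes from RefSeq on GRCm38.p6, while the expression files use mm9. In Nr4a1 (chr15:101266596-101266895, plus strand) capitals mark the CRE-like element TGCGTCA and the EGR motif GCGNGGGCG. In Ptcra (chr17:46763663-46763962, minus strand) they mark the RBPJ core TGGGAA and the E-box CANNTG.
Nr4a1: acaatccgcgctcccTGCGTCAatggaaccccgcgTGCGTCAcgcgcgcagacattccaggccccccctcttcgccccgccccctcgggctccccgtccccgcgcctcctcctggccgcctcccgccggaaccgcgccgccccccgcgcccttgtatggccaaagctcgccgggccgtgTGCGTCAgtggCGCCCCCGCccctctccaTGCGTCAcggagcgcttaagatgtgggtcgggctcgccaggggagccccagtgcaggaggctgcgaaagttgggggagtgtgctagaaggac
Ptcra: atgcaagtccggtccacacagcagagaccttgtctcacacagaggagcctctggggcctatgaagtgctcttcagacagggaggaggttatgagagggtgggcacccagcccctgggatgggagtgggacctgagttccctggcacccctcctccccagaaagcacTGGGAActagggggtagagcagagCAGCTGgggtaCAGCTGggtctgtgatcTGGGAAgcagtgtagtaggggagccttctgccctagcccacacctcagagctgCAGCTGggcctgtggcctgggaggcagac
Nr4a1 held 4 matches to TGCGTCA, beginning 235, 215, 71 and 42 bases before the start, and 1 EGR match on the minus strand 60 bases before it. Ptcra held 2 RBPJ cores, 84 and 32 bases before the start, and 3 E-boxes. Of 32851 promoter windows of the same length, searched on both strands, 2.12% held TGCGTCA, 5.55% the EGR motif, 25.6% the RBPJ core and 72.3% an E-box. The motifs were chosen after values and sequences were seen, and a match only describes the letters.

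Genes of the beta-selection list were mostly lower. Of 21 tested, 18 were lower and 0 higher in Rag2-/- DN3a cells, against 32.9% and 12.3% of all genes. Their median log2 fold change was -2.13 against -0.19 over all genes, and 6 passed the fold and level thresholds. After median-ratio scaling 15 were lower, against 23.8% of all genes. The lower count was 12, 12, 16 and 13 with 1 library left out. Nr4a1, an orphan nuclear receptor induced rapidly by antigen receptor signals, was 42.3 and 26.97 TPM in wild-type DN3a, 37.3 and 28.7 TPM in DN3b and 0 and 0.124 TPM in Rag2-/- cells (log2 -7.82 ± 0.39, adjusted p = 3.5e-05). Egr1, a zinc finger factor of the same early response, fell from 48.3 and 31.9 to 0.547 and 0.997 TPM (log2 -5.54 ± 0.30, adjusted p = 4.3e-05). Its relatives Egr2 (3.49 and 3.32 against 0.236 and 0.155 TPM) and Egr3 (2.74 and 2.34 against 0.09897 and 0 TPM) were lower as well. Nab2, which binds Egr proteins as a corepressor, was 17.04 and 17.8 against 0.295 and 0.0595 TPM, although it is named as overlapping another gene. For all 5 genes the Rag2-/- libraries were below 1 TPM and both wild-type DN3a libraries above 2 TPM. In bulk samples fewer cells with a transcript and less transcript per cell cannot be told apart.

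Transcripts of surface proteins of later or stimulated thymocytes were mostly lower as well. Cd69, an early activation antigen, was 5.91 and 4.203 against 0.643 and 0.419 TPM, and Cd5, which dampens receptor signals, 20.2 and 13.4 against 3.06 and 4.42 TPM. Cd2, an adhesion receptor, was 2.18 and 1.17 TPM in wild-type DN3a, 32.6 and 36.6 TPM in DN3b and 0 and 0.134 TPM in Rag2-/- cells. Tfrc, encoding the transferrin receptor CD71 that the gate excluded, fell from 28.7 and 27.8 to 3.53 and 3.89 TPM (log2 -2.90 ± 0.13, adjusted p = 2.7e-05). Ikzf3, the zinc finger factor Aiolos, was 6.04 and 5.81 against 0.103 and 0.406 TPM, against 25.03 and 22.2 TPM in DN3b cells. The coreceptor genes Cd8a and Cd8b1 were lower at 2.59 and 1.57 against 0.288 and 0.105 TPM and 3.69 and 2.03 against 0.2403 and 0.108 TPM, while Cd4 was 2.08 and 2.55 against 3.87 and 2.87 TPM without a call. Id3, an inhibitor of E proteins, was 1.97-fold lower (80.2 and 61.8 against 38.9 and 32.8 TPM), and Cd28, also a gate marker, was 18.3 and 17.2 against 13.97 and 13.4 TPM and not called (adjusted p = 0.064). The call did not hold for Id3 without either wild-type replicate or Rag2-/- replicate 2.

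Notch genes moved the other way. Of 15 receptors and targets tested 9 were higher and 0 lower, against 12.3% and 32.9% of all genes. Their median log2 fold change was 0.55, and 12 were higher after median-ratio scaling, against 21.1% of all genes. Heyl, a Hes-related repressor, rose from 3.71 and 5.74 to 21.8 and 21.8 TPM (log2 2.22 ± 0.28, adjusted p = 8.0e-04). The Deltex genes Dtx4 and Dtx1, which encode E3 ligases acting on Notch, rose from 9.38 and 11.9 to 37.6 and 55.1 TPM and from 392 and 491 to 1443 and 1240 TPM. As for every gene called higher, both mutant libraries exceeded both wild-type libraries in each case. DN3b cells lay lowest for Heyl, Dtx4 and Dtx1, with Dtx1 at 84.1 and 139 TPM. Nrarp instead stood at 13.9 and 17.8 TPM in wild-type DN3a and 23.03 and 24.1 TPM in DN3b cells. Ptcra was 889.5 and 1081 TPM in wild-type DN3a, 152 and 233 TPM in DN3b and 2000 and 1952 TPM in Rag2-/- cells, 2.01-fold higher in the mutant (log2 1.01 ± 0.19, adjusted p = 0.004). Il2ra, the CD25 chain used in the gate, was 1.56-fold higher (1573 and 1768 against 2789 and 2415 TPM). Nrarp, Notch3, Lfng and Cdkn1b were also higher, whereas Notch1, Notch2, Hes1, Hes5, Rbpj and Maml2 were not called, with Hes1 at 562 and 421 against 613 and 687 TPM. The higher count was 4, 5, 7 and 8 with 1 library left out. The adjusted p rose above 0.05 for Ptcra without any 1 of the 4 libraries, for Dtx1 and Nrarp without wild-type replicate 1, and for Il2ra without either wild-type replicate or Rag2-/- replicate 1.

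**Figure D3:**
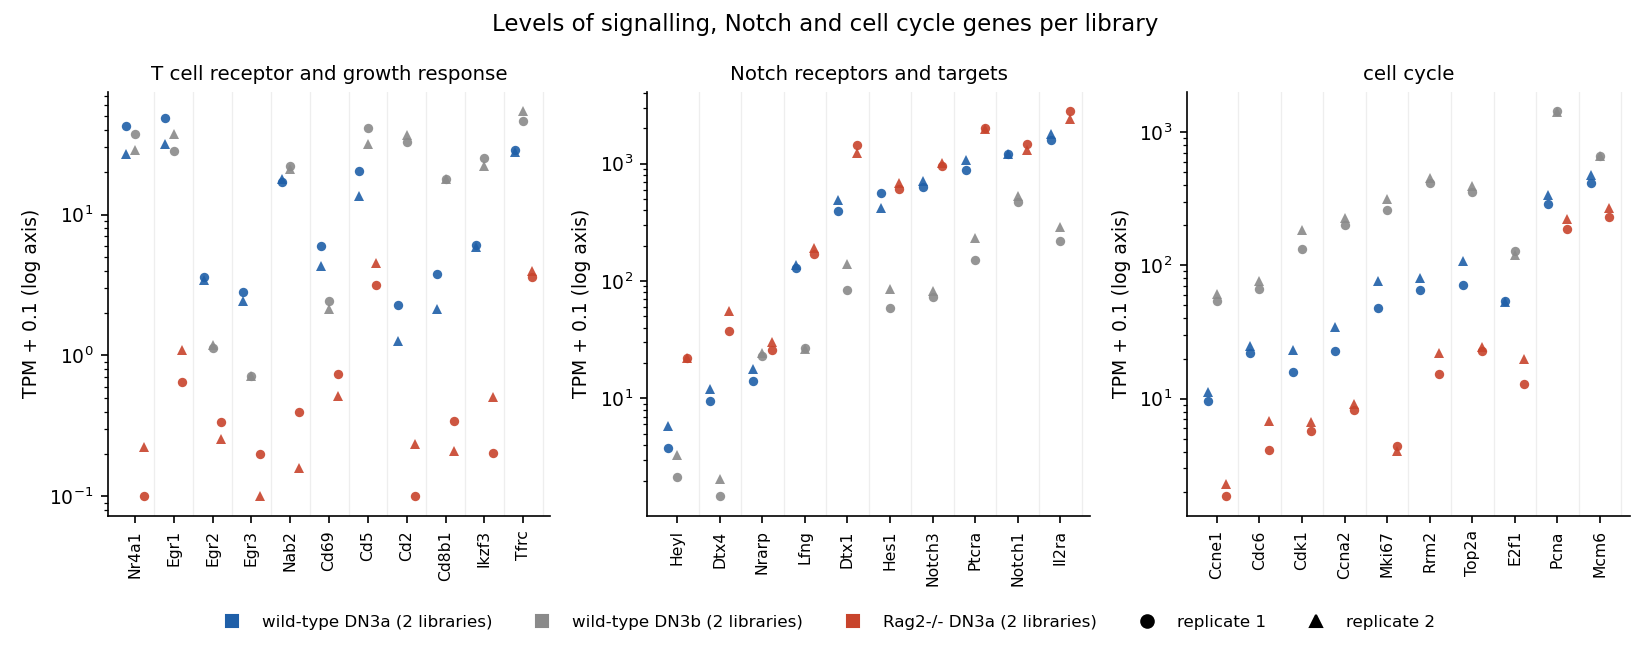
TPM + 0.1 (log y axis) of signalling, Notch and cell cycle genes (x axis) in 6 libraries, with colours for genotype and stage and symbols for replicates. Rag2-/- points lie below wild-type DN3a points in the left and right panels, and above them for Heyl, Dtx4, Dtx1, Ptcra and Il2ra in the middle panel.

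The pre-TCR, CD3 and proximal kinase list had 3 of 16 members higher and 6 lower, against 12.3% and 32.9% of all genes, or 6 and 5 after median-ratio scaling, against 21.1% and 23.8%. Besides Ptcra, the CD3 delta chain gene Cd3d rose from 1320 and 1402 to 2824 and 2441 TPM and Themis, a thymocyte signalling adaptor, rose 1.38-fold. The kinases Zap70 and Syk and the adaptors Lcp2 and Lat were among the lower members, with Zap70 at 83.7 and 63.9 against 41.98 and 40.5 TPM, Lcp2 at 219.5 and 191 against 116 and 124 TPM and Lat named as overlapping. Cd3e, Cd3g, Cd247, Lck and Fyn were not called. The higher count was 1, 2, 1 and 1 with 1 library left out. The lower count was 3, 4, 4 and 6 with 1 library left out. Calls were lost for Ptcra without any 1 of the 4 libraries, and for Lcp2 without wild-type replicate 1.

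Proliferation genes were lower almost throughout. Of 30 cell cycle genes 27 were lower and 0 higher, against 32.9% and 12.3% of all genes. Their median log2 fold change was -1.23, and 26 were lower after median-ratio scaling, against 23.8% of all genes. Mki67, which encodes the proliferation marker Ki-67, was 47.8 and 76.8 TPM in wild-type DN3a, 261 and 315 TPM in DN3b and 4.29 and 3.91 TPM in Rag2-/- cells (14.4-fold lower, adjusted p = 4.7e-05). Cyclin E1 (Ccne1) was 9.51 and 11.04 against 1.75 and 2.205 TPM, and Cdc6, which helps load the replicative helicase, 21.9 and 24.6 against 3.99 and 6.64 TPM. Rrm2, a ribonucleotide reductase subunit, was 64.99 and 79.8 against 15.3 and 21.7 TPM, Top2a, a topoisomerase, 70.9 and 108 against 22.8 and 24.3 TPM, and the spindle checkpoint kinase Bub1 2.79 and 4.02 against 1.25 and 0.571 TPM. The helicase subunits Mcm2, Mcm3, Mcm4, Mcm5, Mcm6 and Mcm7 fell by less, for example Mcm6 from 414 and 478 to 229 and 267 TPM. Cdc20, Ccnd2 and Ccnd3 were not called. The lower count was 23, 19, 25 and 26 with 1 library left out. Significance was lost for Bub1 without either wild-type replicate. Each gene whose values are given here was highest in DN3b and lowest in Rag2-/- DN3a libraries.

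Histone genes went against that pattern. Of 64 tested 49 were higher and 2 lower, against 12.3% and 32.9% of all genes. Their median log2 fold change was 1.95, and 26 of the higher ones passed the fold and level thresholds. Hist1h4d was 2.73 and 2.4 TPM in wild-type and 58.8 and 83.95 TPM in Rag2-/- cells, and Hist1h2af 0.542 and 1.02 TPM in wild-type and 19.6 and 25.95 TPM in Rag2-/- cells. H2afy and H2afy2, which encode macroH2A variants, were the lower members. The count of higher members was 31, 23, 45 and 29 with 1 library left out, and the summed level 2855 and 2647 against 3403 and 3501 TPM. Much of that sum came from variant genes such as H2afy (1263 and 1091 against 889 and 817 TPM) and H3f3b (447.6 and 441 against 857 and 717 TPM). It is thus not the level of replication-dependent histone genes alone. Most replication-dependent histone messages end in a stem-loop instead of a poly(A) tail.

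Small structured RNAs, which also lack a poly(A) tail, were grouped after their values were seen. Rmrp, the RNase MRP RNA, stood at 3.097 and 1.36 TPM in wild-type and 601 and 950.1 TPM in Rag2-/- cells, and Rpph1, the RNase P RNA, at 22.3 and 10.1 TPM in wild-type and 478 and 841 TPM in Rag2-/- cells. Of 6 tested scaRNA genes, which guide modification of spliceosomal RNAs, 4 were higher, against 12.3% of all genes. The scaRNA sum was 24.6 and 18.05 against 645 and 527 TPM. Box C/D and H/ACA snoRNA genes, which lie mostly in introns, differed in the other direction. Of 84 tested, 41 were lower and 4 higher, against 32.9% and 12.3% of all genes. Their sum was 1510 and 1292 against 446 and 395 TPM. The median log2 fold change was -2.21, or -1.71 without the 22 genes listed at 0 throughout 1 genotype. A small RNA gene that passed the filter through 1 genotype alone could differ in 1 direction only, so these counts only describe. Snord47 (34.4 and 27.4 TPM) and Snora61 (32.6 and 45.3 TPM) were listed at 0 in both Rag2-/- libraries. The count of lower snoRNA genes was 20, 24, 34 and 33 with 1 library left out, and that of higher ones 2, 1, 3 and 2 with 1 library left out. Of 259 microRNA hairpin genes 50 were lower and 17 higher, against 32.9% and 12.3% of all genes, with Mir7036 and Mir7115, both named as overlapping, listed at 0 in the mutant and Mir6236 at 0 and 0.761 TPM in wild-type and 21.6 and 24.4 TPM in Rag2-/- cells. The higher microRNA count was 16, 16, 21 and 31 with 1 library left out. The part of RNA selection in the histone and small RNA values was not tested.

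The T-lineage transcription factors had 5 of 25 members higher and 12 lower, against 12.3% and 32.9% of all genes, or 6 and 8 after median-ratio scaling, against 21.1% and 23.8%. Tcf7, encoding TCF-1, was 3270 and 3113 TPM in wild-type and 1406 and 1494 TPM in Rag2-/- cells (2.2-fold lower, adjusted p = 9.2e-05). Tox2, an HMG box factor, was 4.57 and 2.64 against 0.49 and 0.6401 TPM, and Runx3, a Runt factor of the CD8 lineage, 109 and 84.5 against 45.1 and 39.04 TPM. The higher members were Ets2, Bcl11b, Runx1, Lef1 and Ets1, of which Bcl11b, a T cell commitment factor, was 511 and 457 against 702 and 719 TPM and Ets2 108 and 128 against 219.9 and 267 TPM. Gata3, Tcf12, Id2 and Hes1 were not called. The lower count was 3, 5, 9 and 6 with 1 library left out, and the higher count 4, 2, 5 and 3 with 1 library left out. The call did not hold for Runx3 without wild-type replicate 1, and for Id3 without either wild-type replicate or Rag2-/- replicate 2.

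Of 11 tested progenitor genes 2 were higher and 4 lower, against 12.3% and 32.9% of all genes. Bcl11a, a factor of early progenitors, was 10.3 and 12.6 against 3.495 and 3.81 TPM, Kit, the stem cell factor receptor, 36.4 and 37.02 against 19.9 and 17.2 TPM, and Spi1, encoding PU.1, 6.68 and 5.54 against 2.87 and 2.09 TPM. Mycn, a Myc family gene, rose from 37.4 and 43.5 to 78 and 77.04 TPM, and Lmo2 was 0.336 and 0.197 against 1.84 and 1.04 TPM. The adjusted p rose above 0.05 for Kit without wild-type replicate 2, for Spi1 without either wild-type replicate or Rag2-/- replicate 2, for Mycn without any 1 of the 4 libraries, for Lmo2 without wild-type replicate 2 or Rag2-/- replicate 1, and for Gfi1b without Rag2-/- replicate 1. In the survival and IL-7 receptor list 3 of 17 were higher and 4 lower, or 5 and 1 after median-ratio scaling. Over all genes tested the shares were 12.3% and 32.9%, or 21.1% and 23.8% scaled. The cytokine feedback inhibitor Socs3 was 136 and 164 against 223 and 239 TPM, and Bid, a proapoptotic BH3 gene, 37.9 and 39.6 against 24.8 and 20.6 TPM. Il7r, Bcl2, Bcl2l1 and Mcl1 were not called, with Il7r at 80.99 and 84.3 against 85.03 and 78.2 TPM. The higher count of that list was 0, 1, 0 and 1 with 1 library left out, and the lower count 1, 1, 2 and 4 with 1 library left out. Calls were lost for Socs3 without either Rag2-/- replicate or wild-type replicate 1, and for Bid without either wild-type replicate.

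Among 20 p53 targets and DNA damage genes 2 were higher and 9 lower, against 12.3% and 32.9% of all genes. After median-ratio scaling 3 were higher and 8 lower, against 21.1% and 23.8%. Cdkn1a, the p21 cell cycle inhibitor, was 183 and 204 TPM in wild-type and 187 and 219.9 TPM in Rag2-/- cells and not called. Bbc3, encoding the proapoptotic protein Puma, was 26.3 and 19.6 against 6.05 and 12.1 TPM, and Pmaip1, encoding Noxa, 0.556 and 0.917 against 1.85 and 4.45 TPM. Tnfrsf10b, Zmat3, Aen and Psrc1 were lower as well, among them the nuclease gene Aen at 46.4 and 47.04 against 28.3 and 20.4 TPM. The higher count was 0, 0, 2 and 0 with 1 library left out. Significance was lost for Bbc3 without either wild-type replicate or Rag2-/- replicate 1, for Pmaip1 without either wild-type replicate or Rag2-/- replicate 2, and for Aen without either wild-type replicate.

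Of 31 interferon-stimulated genes 4 were higher and 2 lower, against 12.3% and 32.9% of all genes, with a median log2 fold change of 0.36. After median-ratio scaling 15 were higher and 2 lower, against 21.1% and 23.8%, with a median of 0.54. Isg15, a ubiquitin-like protein gene, was 106 and 101 against 171 and 146 TPM, and Iigp1, an interferon-inducible GTPase gene, 6.84 and 6.099 against 15.6 and 14.1 TPM. The lower members were Oas2 and Stat2. The higher count was 1, 1, 2 and 4 with 1 library left out. The call did not hold for Isg15 and Dhx58 without either wild-type replicate or Rag2-/- replicate 1, for Oas2 and Iigp1 without any 1 of the 4 libraries, and for Stat2 without wild-type replicate 2. Of 74 ribosomal protein genes 24 were higher and 12 lower, against 12.3% and 32.9% of all genes. After scaling 39 were higher and 4 lower, against 21.1% and 23.8%. Rps7 was 259 and 289.7 against 905 and 609.7 TPM and Rpl10a 65.1 and 79.2 against 32.3 and 26.8 TPM. The higher ribosomal count was 9, 8, 17 and 21 with 1 library left out, and the lower count 4, 3, 9 and 7 with 1 library left out. Many ribosomal protein genes have near-identical pseudogenes that can share their reads. Of 7 Gimap genes, a family of lymphocyte GTPases, 3 were lower and 0 higher, against 32.9% and 12.3% of all genes. After scaling 2 were lower and 1 higher, against 23.8% and 21.1%. Gimap9 was 89.99 and 103 against 63.4 and 67.3 TPM, and the lower count was 1, 0, 2 and 1 with 1 library left out.

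Immediate-early and heat-shock genes are given by library, since wild-type replicate 1 stood apart. Hspa1a, the inducible HSP70 gene, was 95.3 and 4.58 TPM in wild-type replicates 1 and 2 and listed at 0 in both Rag2-/- libraries. Fosb, an AP-1 subunit gene, was 47.5 and 0.7297 TPM in wild-type and 0.186 and 0.0811 TPM in Rag2-/- cells, and Fos, another subunit, 92.05 and 0.492 TPM in wild-type and 0.134 and 0.837 TPM in Rag2-/- cells. Of 20 genes in the list 9 were lower and 2 higher, against 32.9% and 12.3% of all genes. After median-ratio scaling 8 were lower and 2 higher, against 23.8% and 21.1%. Nr4a1 and Egr1, which belong to this list too, were at 42.3 and 26.97 TPM and 48.3 and 31.9 TPM in wild-type replicates 1 and 2 and kept their call without replicate 1. The adjusted p rose above 0.05 for Fosb without either Rag2-/- replicate or wild-type replicate 1, and for Hsph1 without either wild-type replicate or Rag2-/- replicate 1.

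Leaving aside receptor segments, histones and small RNAs, the largest fitted rise was that of Rhov, a small GTPase gene, at 0.514 and 0.985 TPM in wild-type and 64.6 and 77.8 TPM in Rag2-/- cells (log2 6.44 ± 0.55, adjusted p = 1.9e-04). Cbr2, a carbonyl reductase gene, was 0.0451 and 0.0917 against 3.73 and 7.14 TPM, Gm266 0.0876 and 0.693 against 5.08 and 12.2 TPM and the metalloprotease gene Adam19 0.296 and 0.364 against 9.32 and 5.32 TPM. Tbata, a gene known from thymic epithelium, was 0.151 and 0.271 against 2.71 and 10.9 TPM, highest in Rag2-/- replicate 2. Calls were lost for Tbata without either wild-type replicate. A few further genes were picked after their values were seen. The imprinted neighbours H19 and Igf2, a noncoding RNA and a growth factor gene that are both named as overlapping, were 695 and 2047 against 5207 and 4430 TPM and 3.38 and 8.35 against 27.1 and 36.6 TPM. Pdgfa, a growth factor gene, was 11.9 and 17.2 against 88.4 and 106 TPM and Fbp1, a gluconeogenic phosphatase gene, 15.5 and 19.3 against 109 and 93.97 TPM. Of the lower genes, Gdpd3, a lysophospholipase D gene, was 81.5 and 21.6 against 1.24 and 0.574 TPM, Sqrdl, a mitochondrial sulfide oxidase gene, 5.798 and 4.78 against 0.0667 and 0.292 TPM, and Alpl, alkaline phosphatase, 5.55 and 5.01 against 0.141 and 0.257 TPM. Xist, named as overlapping, was 87.5 and 70.7 against 11.2 and 9.42 TPM and the Y-linked Ddx3y 4.55 and 9.59 against 4.13 and 6.41 TPM. Both were thus read in all 4 libraries, with Xist below wild type in both Rag2-/- libraries. Whether the genotypes differed in their mix of sexes was not tested.

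The gene order of RefSeq on GRCm38.p6, in which 12005 tested genes were found, served to compare genes near Rag2 with the rest. Among the 100 nearest genes on each side 60 were tested, of which 5 were higher and 16 lower, against 12.3% and 32.9% of all genes. Of these Cd59a, a complement regulator, passed the fold and level thresholds, at 34.9 and 36.9 TPM in wild-type and 8.104 and 8.15 TPM in Rag2-/- cells. Among the 25 nearest on each side 10 were tested, 0 higher and 2 lower. Across 20 chromosomes the share of genes called higher was 9.55% to 17.9% and the share called lower 26.1% to 35.8%, with the highest share of higher genes on chromosome 13, where the large histone cluster lies.

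The labelled cell type was checked with 13 DN3 markers. The mRNAs of Thy1 (3860 and 3545 against 2972 and 3201 TPM), Il2ra, Cd3e, Lck and Ptcra were high in every DN3a library, and Cd44 was 1.91 and 1.19 against 0.248 and 0.256 TPM. Over all genes tested 12.3% were higher and 32.9% lower, or 21.1% and 23.8% after median-ratio scaling. These shares stand beside every marker count in this and the next paragraph. Of the 13 DN3 markers 5 were higher and 4 lower in the mutant, or 7 and 3 after that scaling. The higher count was 2, 3, 3 and 4 with 1 library left out, and the lower count 3, 2, 3 and 3 with 1 library left out. Of 6 tested gamma-delta T cell markers 5 were lower (Etv5, 5830411N06Rik, Cd163l1, Blk and Maf), and Sox13 was 90.6 and 120.2 against 118 and 108 TPM. Their summed level was 322 and 249.9 against 186 and 155 TPM, the lower count was 3, 4, 4 and 3 with 1 library left out, and Il17a and Il23r were listed at 0 in all 4 libraries. Of 9 mature T cell and CD4+ CD8+ thymocyte markers 5 were lower (Trac, Cd8a, Cd8b1, Klf2 and Arpp21), with a sum of 346 and 323 against 228 and 234 TPM. Of 4 tested NK and innate lymphoid markers 1 was higher (Gzma, 182 and 155 against 242 and 205 TPM), with a sum of 460.3 and 407 against 505 and 496 TPM and Klrd1 and Klrk1 listed at 0. Of 4 tested B cell markers 2 were higher (Igll1, the surrogate light chain gene, 0.612 and 1.18 against 6.49 and 6.01 TPM, and Cd79b, 159.8 and 159 against 212 and 239 TPM), with a sum of 169 and 170.2 against 228 and 258 TPM, Ms4a1 listed at 0 and Pax5 listed at 0 in Rag2-/- cells. Significance was lost for Gzma without either wild-type replicate or Rag2-/- replicate 1, for Igll1 without wild-type replicate 1, for Cd79b without either wild-type replicate, for 5830411N06Rik without either wild-type replicate or Rag2-/- replicate 2, for Cd163l1 without Rag2-/- replicate 2, for Blk without wild-type replicate 1 or Rag2-/- replicate 1, and for Klf2 without wild-type replicate 1 or Rag2-/- replicate 2.

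Some markers of non-lymphoid cells were highest in Rag2-/- replicate 2. Of 6 tested granulocyte and macrophage markers 3 were higher (C1qa, C1qb and Lyz2), with a sum of 55.02 and 50.2 against 80.1 and 126 TPM and Elane listed at 0. C1qa, a complement gene of macrophages, was 0.197 and 0.433 TPM in wild-type and 2.07 and 11.1 TPM in Rag2-/- cells. Of 6 tested thymic stromal markers 3 were higher (Krt8, Psmb11 and Epcam) and 1 lower (Pecam1), with a sum of 307 and 306 against 293 and 326 TPM. Epcam (148 and 172 against 205 and 213 TPM) and Pecam1 (152 and 128 against 82.2 and 94.1 TPM) held most of that sum in every DN3a library. Krt8, an epithelial keratin gene, was 0 and 0.141 against 0.842 and 5.49 TPM. Of 7 tested dendritic cell markers 1 was higher (Cst3, 337 and 317 against 596 and 593 TPM), with a sum of 420.5 and 401 against 669 and 719 TPM, H2-Aa at 1.94 and 1.39 against 2.23 and 10.9 TPM and Clec9a listed at 0. Of 3 tested erythroid markers 1 was higher (Alas2, named as overlapping, 0.961 and 0.804 against 2.78 and 2.23 TPM), with a sum of 3.46 and 2.63 against 5.18 and 4.42 TPM and Hba-a1 listed at 0. The call did not hold for C1qa, Krt8 and Psmb11 without either wild-type replicate, for C1qb, Lyz2 and Epcam without any 1 of the 4 libraries, and for Pecam1 without wild-type replicate 1. The part of these cells in the other results was not tested.

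**Figure D4:**
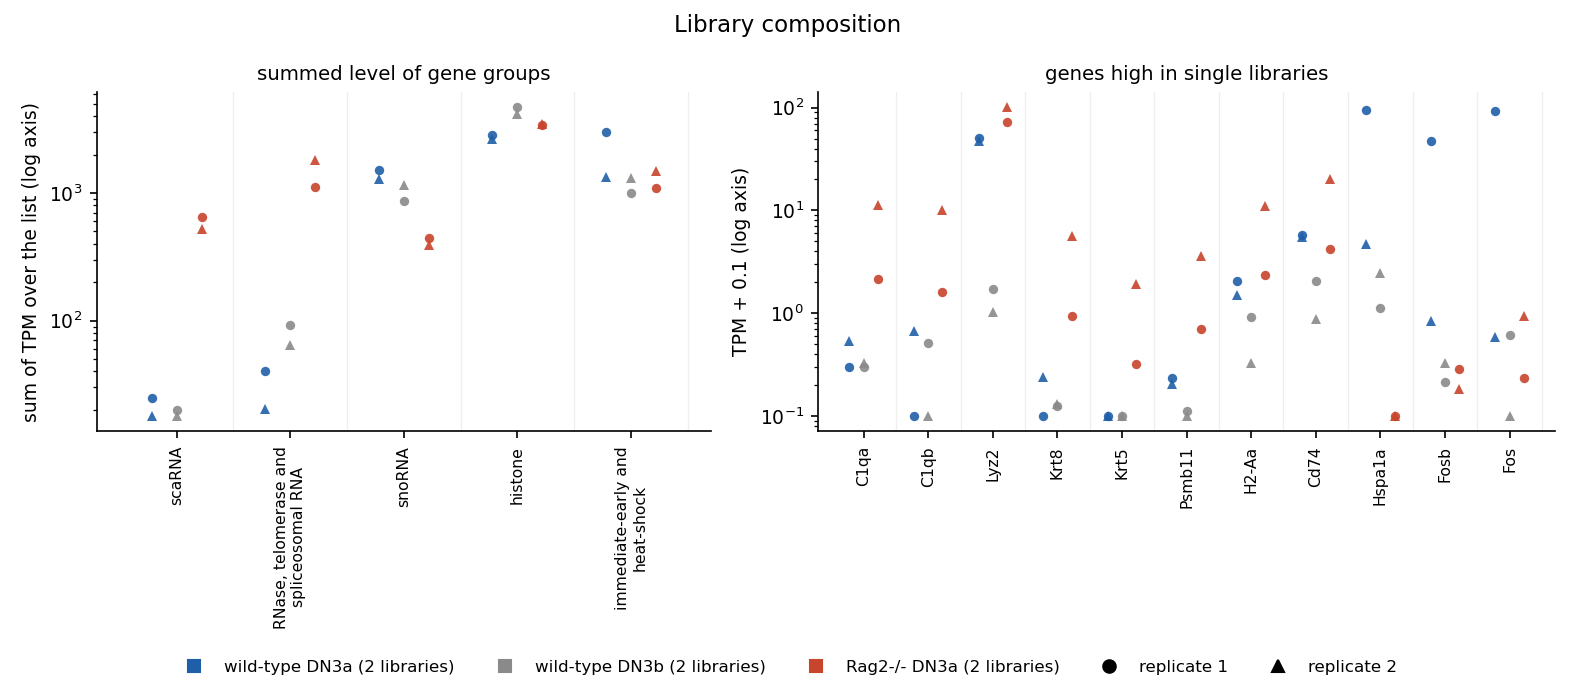
Left, summed TPM (log y axis) of small RNA, histone, and immediate-early and heat-shock genes in 6 libraries. Right, TPM + 0.1 (log y axis) of single genes, with colours for genotype and stage and symbols for replicates. C1qa, Krt8 and H2-Aa are highest in Rag2-/- replicate 2, and Hspa1a, Fosb and Fos in wild-type replicate 1.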

How the data were processed

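RNA libraries were prepared from poly(A) RNA with a NebNext UltraII kit per the labels. Per the study's methods the authors aligned the thymocyte reads with TopHat 1.4.1 and calculated TPM for RefSeq genes, and the build is mm9 per the names of the deposited files. Each deposited file lists every gene in 2 unlabelled entries, and its values together sum to 2000000. The deposited column was therefore recorded as a score, and the mean of both entries was used as TPM, with an entry of exactly 1 read as 0. The ratio of both entries varied little across the 4 DN3a libraries (median SD of its log2, 0.0239). Read totals are not given in the sources used here. From the smallest steps of low values, wild-type replicate 2 held 1.14 times and the Rag2-/- libraries 0.768 and 0.698 times the reads of wild-type replicate 1, and 9782 and 9690 genes were listed at 0 in Rag2-/- against 8831 and 8911 in wild-type DN3a libraries.

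Genes above 1 TPM in at least 1 of the 4 DN3a libraries were tested with limma 3.58.1 (R 4.3.3) on log2(TPM + 0.1), eBayes with trend, two-sided, over 6 libraries, in which the DN3b libraries share the spread. Adjustment was over all 12060 genes. In simulated data for this comparison 200 of 12060 genes were changed. Of those changed by 1 on the log2 scale 53% were recovered, and of those changed by 2, 87%. False calls numbered 10, or 6.67% of calls. Far fewer genes were changed there than were called in the real fit, so these shares need not hold for it. Genes named are Rag2, Rag1, up to 6 called members per list, and the 12 largest changes in each direction with a mean above 5 TPM and no overlap of libraries. Further list members illustrate a list, and others are marked as picked after their values were seen. The comparison and its 24 gene lists were chosen with earlier results of these data known. Of the tested genes 1873 are named in the files as overlapping and may share reads, and whether counting used strand is not given in the sources used here. Alternatives were another pseudocount, filter, scaling, entry or set of libraries, a replicate block and leaving out each library. Other cell types entered only the alternative with 17 lymphoid libraries, and chromatin and pro-B cell files were not used here. A few genes that count in their lists are not reported here by name.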

Additional observations from a re-analysis of the deposited data

How the results depend on the processing

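The number of genes called (5455) was 3488 with all 17 lymphoid libraries in the fit and 2538 to 5541 without 1 library, lowest without either wild-type DN3a library. The number past the fold and level thresholds (496) ranged from 401 with a pseudocount of 1 to 508 with the upper entry alone, and from 423 to 501 without 1 library. Quantile normalization called 2941 genes higher and 2738 lower and median-ratio scaling 2547 and 2871, against 1486 and 3969 as deposited. The log2 fold change of Rag2 lost its call with a pseudocount of 0.01, without a filter and without the trend (-0.65 each), with median-ratio scaling (-0.47), with quantile normalization (-0.47) and without 1 DN3a library (range over libraries left out, -0.96 to -0.33), and the cause was not tested. Of 129 other named genes 71 kept direction and call in all 19 alternatives, 58 lost their call in at least 1, and 0 reversed. A fit with the replicate block called 5755 genes, 502 of them past the thresholds. The main fit did not treat same-numbered libraries as pairs. Those of the 2 genotypes did not deviate together (r = 0.079 across genes, which are not independent replicates). With 1 replicate difference per genotype this cannot exclude pairing. The lower relative depth of the Rag2-/- libraries limits what can be said of genes listed at 0 there.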
